A study of Drosophila melanogaster with 6 samples.

Results

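The mitochondrial ribosomal proteins are encoded by nuclear genes, and their transcripts were examined here in body wall muscle of larvae at the third instar, from the fruit fly Drosophila melanogaster after acute, optogenetically driven exercise. The genes were taken as all rows of the count table whose FlyBase symbol begins with mRpL or mRpS and whose counts sum to at least 10 over the 6 libraries. This gave 70 of 17477 genes, 46 with a large subunit symbol (mRpL) and 24 with a small subunit symbol (mRpS). Genes are assigned to a subunit by symbol alone throughout, which need not be the place of the protein in the ribosome. The exercised group was 3 libraries from OK6-Gal4bc > CsChrimbc larvae, in which the motor neuron driver OK6-Gal4 expresses the red-light-gated channel CsChrimson, so that light makes the body wall contract. The control group was 3 libraries from w1118 larvae, which carry neither transgene and received the same light. Both parental transgenic lines had been backcrossed to the w1118 stock, and larvae of both groups were size matched, of mixed sex and kept overnight on food with all-trans retinal, the cofactor of the channel. Light was given for 2 h, as sets of 8 pulses of 1 s with 2 s of dark between them and 30 s of rest, with 5 min of rest after every 3 sets. Genotype and exercise therefore differ together between the groups and cannot be told apart. The study describes the libraries of each condition as independent biological replicates, but the number of larvae in each is not stated there. RNA came from cuticle preparations with the muscles attached, so a library can also hold RNA of fat body, hemocytes, epidermis and nerve endings.

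Animal mitochondria translate a handful of proteins of their own genome, all of them subunits of the respiratory chain and the ATP synthase, on a ribosome that descends from that of bacteria. Its ribosomal RNAs come from the mitochondrial genome, while every protein of it is made in the cytosol from a nuclear gene and imported. The small subunit binds the mRNA and holds the decoding centre, and the large subunit holds the peptidyl transferase centre and the exit tunnel, which in mitochondria feeds new chains into the inner membrane. Some of the proteins have homologues in bacterial ribosomes and others were added in the mitochondrial lineage.

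The 70 genes lie on all large chromosome arms, with 12 on 2L, 11 on 2R, 15 on 3L, 21 on 3R and 11 on X. One further row, mRpL53 (FBgn0050481, 2R:13954195-13955664, plus strand), was listed at 0 in all 6 libraries and was left out by the minimum. All 829 of its exon bases (100.0%) are shared with other annotated genes. The genes mRpS5 and mRpS34 stand in the name table under identifiers that did not match the count table, and they were not analysed here. By homology, 44 of the 70 genes encode proteins with a bacterial counterpart and 26 encode proteins specific to mitochondria. Every one of the 70 passed the filter on low counts, with between 69 and 1929 counts per gene and library.

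Library totals were 19625425 to 22063283 counts in exercised and 20485254 to 23953341 in control libraries. Muscle transcripts were abundant in both groups. Of 12 muscle markers chosen, all but wupA were matched to the count table. The 11 matched summed to 145815 to 159847 CPM (counts scaled to the TMM-adjusted library total) in exercised and 143854 to 160793 CPM in control libraries. Of these 11 markers 0 passed the test described below. Midgut markers were near 0, with 0.05 to 0.62 CPM in exercised and 0.41 to 0.69 CPM in control libraries for 7 genes together. Hemocyte markers summed to 1158 to 1545 CPM in exercised and 639 to 1143 CPM in control libraries, with 2 of 6 higher (NimC1 and PPO1). The defining hemocyte gene Hml, He and eater were not called and had log2 fold changes of -0.45, -0.22 and -0.51. Neuron markers summed to 41.7 to 57.7 CPM in exercised and 54.6 to 69.8 CPM in control libraries, with 1 of 6 lower (nrv3). Fat body markers set control 3 apart from the other controls. Their sum was 6764, 6133 and 5065 CPM in exercised libraries 1, 2 and 3, against 556, 420 and 3641 CPM in control libraries 1, 2 and 3. Of the 8 markers 2 (Lsp1gamma and Fbp1) passed as higher in exercised larvae. Control 3 was the highest control for 7 of the 8, but not for Lsp1gamma. That gene had 2408, 2091 and 1654 CPM in exercised and 2.21, 2.54 and 1.78 CPM in control libraries. It therefore adds to the exercised sums and hardly to the control sums. In these bulk libraries fewer cells of a type and less RNA per cell cannot be told apart.

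Whether acute exercise was accompanied by a change of the mitochondrial ribosomal protein transcripts was asked with edgeR's quasi-likelihood test, fitted to the counts of all 9127 genes that passed the filter, with Benjamini-Hochberg adjustment over all of them and a threshold of 0.05. At that threshold 18.8% of all genes tested were called, 10.3% as higher and 8.52% as lower in exercised larvae (936 and 778 genes). With upper-quartile scaling factors in place of TMM factors the split was 773 higher and 1003 lower. Of the 70 mitochondrial ribosomal protein genes, 0 were called higher and 1 was called lower, the small subunit gene mRpS31, so that 1.43% of the group was called. At an unadjusted p under 0.05, 0 genes were higher and 3 were lower (mRpS31, mRpL17 and mRpS22), beside 1553 higher and 1482 lower of all 9127. DESeq2 and limma-voom each also called 0 higher and 1 lower, mRpS31.

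The fold changes of the group lay close to 0. The median log2 fold change (exercised over control) was -0.04 with quartiles of -0.11 and 0.10, beside a median of -0.01 with quartiles of -0.25 and 0.21 over all genes tested. It was positive for 30 genes and negative for 40, and ran from -0.69 to 0.42. The 95% interval of the difference stayed within 1.5-fold in either direction for 56 of the 70 genes (80.0%), beside 49.3% of all genes tested. The group was measured about as precisely as a typical gene, with a median standard error of 0.16 on the log2 scale beside 0.14 over all genes tested. The CPM of the groups did not overlap for 4 of the 70 (5.71%), beside 39.2% of all genes tested. These 4 were mRpS7, higher in exercised larvae, and mRpS31, mRpL17 and mRpS22, lower.

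**Figure D1:**
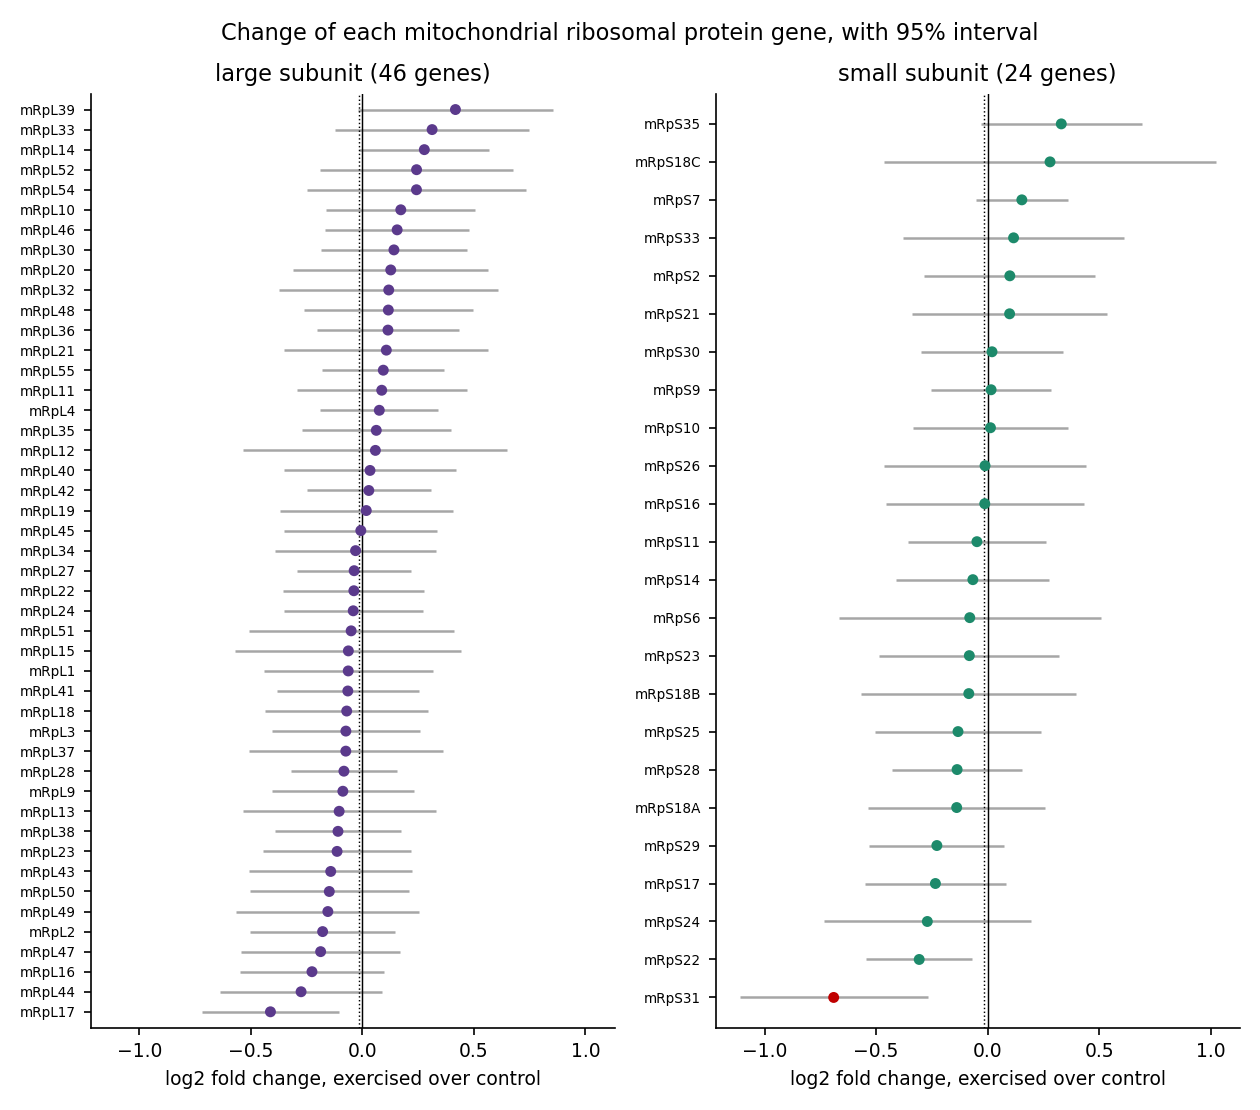
Log2 fold change (exercised over control) of the 70 mitochondrial ribosomal protein genes with its 95% interval from edgeR, large subunit on the left and small subunit on the right, each sorted by value. The solid line marks 0 and the dotted line the median of all genes tested (-0.01), and the red point is mRpS31 (-0.69), the one gene past an adjusted p of 0.05.

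mRpS31 (FBgn0036557, 3L:16005193-16006599, plus strand, 3 exon blocks) encodes a mitochondrion-specific protein of the small subunit. It was present at 16.2, 12.3 and 12.7 CPM in exercised libraries 1, 2 and 3, against 17.4, 22.1 and 27.0 CPM in control libraries 1, 2 and 3. Each exercised library was below each control, though exercised 1 and control 1 were close. mRpS31 averaged 13.7 ± 2.13 CPM in exercised and 22.2 ± 4.80 CPM in control libraries (SD, n = 3 each), a log2 fold change of -0.69 with a standard error of 0.18 (edgeR adjusted p = 0.036). The call rested on single libraries. Leaving out one library at a time, the log2 fold change stayed between -0.84 and -0.51, but the edgeR adjusted p was 0.086 without exercised 2, 0.130 without exercised 3, 0.097 without control 2 and 0.090 without control 3. A stretch of 48 exon bases of mRpS31, 3.76% of its exons, is shared with mib1 on the other strand, which was higher in exercised larvae (log2 fold change 0.46, edgeR adjusted p = 0.0092).

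The other genes with the lowest fold changes were mRpL17, mRpS22, mRpL44, mRpS24 and mRpS17, none of which was called. mRpL17, whose bacterial homologue lies at the exit tunnel of the large subunit, had 14.2, 13.2 and 11.4 CPM in exercised libraries and 15.3, 16.6 and 19.8 CPM in controls, with a log2 fold change of -0.41 ± 0.13 (SE) and an edgeR adjusted p of 0.069. mRpS22, a mitochondrion-specific small subunit protein in which mutations are known to cause mitochondrial disease in humans, had 28.8, 27.1 and 26.5 CPM in exercised libraries and 31.4, 32.1 and 38.5 CPM in controls. Its log2 fold change was -0.31 ± 0.10 (SE) with an edgeR adjusted p of 0.076. Neither pair of ranges overlapped, and both genes passed with upper-quartile scaling (edgeR adjusted p = 0.046 for mRpL17 and 0.045 for mRpS22). mRpL44, a large subunit protein with a ribonuclease III fold, had a log2 fold change of -0.28 ± 0.16 (edgeR adjusted p = 0.265), and its ranges overlapped at 19.6 to 21.3 CPM in exercised and 19.7 to 30.3 CPM in control libraries. mRpS24 and mRpS17 had log2 fold changes of -0.27 and -0.23 (edgeR adjusted p = 0.394 and 0.281).

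At the other end were mRpL39, mRpS35, mRpL33, mRpS18C, mRpL14 and mRpL52, and none of these was called either. mRpL39, a mitochondrion-specific large subunit protein related to threonyl-tRNA synthetases, had 36.3, 31.6 and 33.1 CPM in exercised libraries, against 19.1, 23.9 and 32.8 CPM in controls. The ranges met because control 3 was as high as the exercised libraries. The log2 fold change was 0.42 ± 0.19 (SE) with an edgeR adjusted p of 0.168, and without control 3 it was 0.66 with an adjusted p of 0.020. mRpS35, a mitochondrion-specific protein of the small subunit, showed the same arrangement, with 27.2, 23.7 and 23.0 CPM in exercised libraries and 15.9, 19.0 and 23.9 CPM in controls. Its log2 fold change was 0.33 ± 0.16 (edgeR adjusted p = 0.184), and without control 3 it was 0.51 (adjusted p = 0.043). The large subunit genes mRpL33, mRpL14 and mRpL52 had log2 fold changes of 0.31, 0.28 and 0.24, with edgeR adjusted p of 0.292, 0.169 and 0.415. mRpS7, whose bacterial homologue sits in the head of the small subunit beside the mRNA exit, was singled out after its values were seen. It had 28.7, 25.7 and 25.2 CPM in exercised libraries and 23.0, 23.8 and 24.7 CPM in controls, with a log2 fold change of 0.15 ± 0.09 (edgeR adjusted p = 0.272) between groups that did not overlap.

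**Figure D2:**
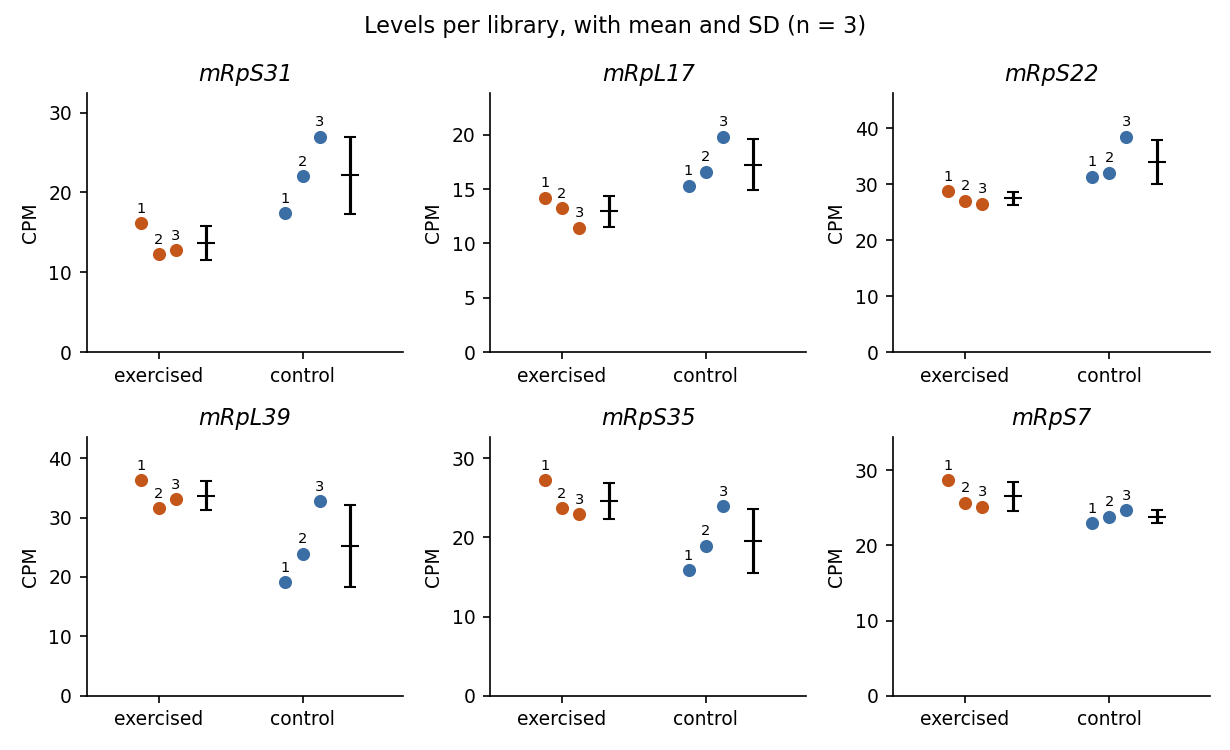
CPM of 6 mitochondrial ribosomal protein genes in each library, exercised (orange) left of control (blue), with the replicate number over each point and the mean and SD beside it (n = 3). The exercised points of mRpS31, mRpL17 and mRpS22 lie below all control points, while control 3 of mRpL39 (32.8 CPM) and mRpS35 (23.9 CPM) lies among the exercised points.

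Split by the subunit in the symbol or by origin, the group had medians near 0 in each class. For the large subunit the median log2 fold change was -0.03, with 0 of 46 genes called in either direction, and for the small subunit it was -0.06, with 0 of 24 called higher and 1 lower. For genes with a bacterial homologue the median was -0.03 with 0 of 44 called, and for mitochondrion-specific genes it was -0.06 with 0 of 26 higher and 1 lower. The summed level of the large subunit genes was 848 ± 84.8 CPM in exercised and 853 ± 140 CPM in control libraries, and that of the small subunit genes was 400 ± 38.6 CPM and 415 ± 67.2 CPM (SD, n = 3 each). The 11 X-linked genes had a median of -0.07 with 0 called, and the 59 autosomal genes one of -0.03. Transcripts tied to sex differed between the groups: Sxl and tra were higher in exercised larvae (log2 fold changes 0.70 and 0.83) and msl-2, the male-specific dosage compensation factor, was lower (-1.69), with edgeR adjusted p of 0.0022, 0.042 and 0.011. The dosage compensation RNA roX1 was not called (edgeR adjusted p = 0.203), with 56.2, 4.03 and 4.74 CPM in exercised libraries and 160, 157 and 79.4 CPM in controls. Exercised 1 and control 3 were the libraries in which the mitochondrial ribosomal protein genes were highest. For roX1 they stood apart in opposite directions, exercised 1 above the rest of its group and control 3 below it. The part of sex composition in the results was not tested.

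The bacterial protein S18 has several descendants in animal mitochondria, encoded in the fly by mRpS18A, mRpS18B and mRpS18C. In mammals the products of the homologous genes occupy different places, with the S18A protein in the large subunit, although its gene is counted here with the small subunit by its symbol. mRpS18C was the most variable of all 70 genes, with a biological coefficient of variation of 0.276 beside a median of 0.154 for the group. It had 9.51, 7.03 and 5.76 CPM in exercised libraries and 3.73, 6.32 and 8.36 CPM in controls, so that control 3 was 2.24 times control 1. mRpS18A had 10.5, 9.51 and 9.16 CPM in exercised libraries and 8.48, 10.3 and 13.3 CPM in controls, and mRpS18B had 11.5, 8.07 and 8.83 CPM and 7.82, 9.64 and 12.7 CPM. The log2 fold changes were -0.14 ± 0.17 for mRpS18A, -0.08 ± 0.21 for mRpS18B and 0.28 ± 0.31 for mRpS18C (SE), with edgeR adjusted p of 0.626, 0.820 and 0.590. The 95% interval for mRpS18C ran from -0.46 to 1.02 and held 0.

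Within each group, the mitochondrial ribosomal protein genes shifted together from library to library. Summed over all 70 genes, the level was 1390, 1172 and 1181 CPM in exercised libraries 1, 2 and 3 (mean 1248 ± 123), against 1091, 1218 and 1496 CPM in control libraries 1, 2 and 3 (mean 1268 ± 207), a ratio of 0.984 between the group means. Control 3 was above control 1 for 70 of 70 genes, with a median ratio of 1.36. It was the highest control for 68 genes (97.1%, beside 38.9% of all genes tested), and control 1 was the lowest for 62 (88.6%, beside 31.1%). Exercised 1 was the highest exercised library for 65 genes (92.9%, beside 36.8%). The median ratio of the highest to the lowest control was 1.37, beside 1.21 over all genes tested, while the median fold between the group means was 1.08. For 66 of the 70 genes the range of the controls was wider than the difference between the group means.

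**Figure D3:**
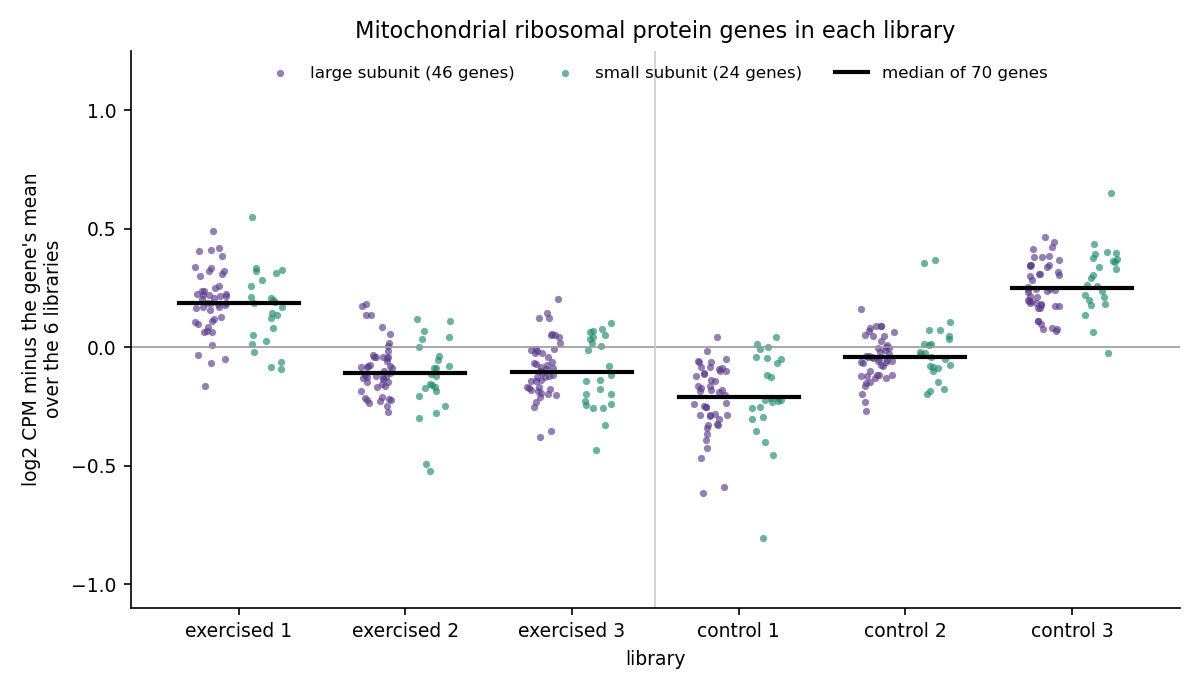
Log2 CPM of each mitochondrial ribosomal protein gene in each library, minus that gene's mean over the 6 libraries, with exercised libraries on the left and controls on the right. Points are genes of the large (purple) and small (green) subunit, and the bars are medians over the 70 genes, at 0.18, -0.11 and -0.11 in exercised and -0.21, -0.04 and 0.25 in control libraries.

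The sign of the group's median depended on single libraries. The median of all 6 libraries was -0.04. Without control 3 the median log2 fold change was 0.14, with 58 of 70 genes positive and 2 called higher (mRpL39 and mRpS35). Without exercised 2 it was 0.03 with 41 genes positive, and without exercised 3 it was 0.01 with 38 positive. It stayed negative without exercised 1 (-0.13, 17 genes positive), control 1 (-0.13, 18 positive) and control 2 (-0.05, 28 positive). The median over all genes tested lay between -0.02 and 0.00 in these 6 fits. Other gene groups were also high in control 3. It was the highest control for 98.7% of 75 cytosolic ribosomal protein genes and 93.7% of 63 nuclear-encoded respiratory chain genes. Its summed level exceeded that of control 1 by a smaller ratio there, 1.16 and 1.13, compared with 1.37 for the mitochondrial ribosomal protein genes. The shift was not particular to this group, since the ratio was 1.28 for the mitochondrial translation factors described below. For tko and bonsai, mitochondrial ribosomal protein genes under other symbols, it was 1.57. Control 3 was the highest control, and exercised 1 the highest exercised library, for 88.9% of 9 translation factors tested. Control 1 was the lowest control for 10.7% of the cytosolic ribosomal protein genes and 38.1% of the respiratory chain genes, and exercised 1 was the highest exercised library for 97.3% and 74.6% of them. Exon length moved with the library order as well. Among the other genes tested, control 3 was the highest control for 54.3% of 1290 genes with exons of up to 1000 bases and for 21.7% of 1959 genes with exons over 4000 bases, and exercised 1 was the highest exercised library for 51.1% and 22.7% of the same genes. The median exon length of the mitochondrial ribosomal protein genes was 783 bases. The part that gene length, or the fat body RNA of control 3 given above, had in the shift was not tested.

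Per kilobase of exon, the mitochondrial ribosomal protein genes were expressed in a narrow band. Their mean over the 6 libraries had a median of 19.8 CPM per kb, with 12.7 and 28.8 at the 10th and 90th percentiles, beside a median of 7.03 over all genes tested. The cytosolic ribosomal protein genes had a median of 1164 CPM per kb and the respiratory chain genes one of 171 CPM per kb. The highest member by far was mRpL28, whose bacterial homologue is a small protein of the large subunit, at 65.1 CPM per kb. It had 67.7, 78.8 and 75.5 CPM in exercised libraries and 73.4, 73.6 and 88.1 CPM in controls (log2 fold change -0.08, 95% interval -0.32 to 0.15, edgeR adjusted p = 0.624). Unlike most of the group, it had its lowest exercised value in exercised 1. Next came mRpL12, the stalk protein that contacts translation factors, at 39.9 CPM per kb, then mRpL55 at 38.1, mRpL42 at 36.1 and mRpS9 at 32.5. The SD over the 6 libraries was 9.31 CPM per kb for mRpL12, 3.71 for mRpL55, 3.53 for mRpL42 and 3.19 for mRpS9. The gaps from mRpL12 to mRpL55 and from mRpL55 to mRpL42 were smaller than the SDs of these genes, while mRpL28 (SD 5.87) stood clear of them. The SDs hold the shift between libraries that the genes share, so they do not measure how certain the order is, and the order was not tested. With exon bases shared with another gene left out of the length, mRpS9 stood at 43.4 CPM per kb, above mRpL12, and mRpL28 at 66.1 remained the highest. All counts of a gene were kept in this measure, so it is too high if reads in shared bases were counted.

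mRpL12 varied strongly, with 38.1, 24.6 and 27.3 CPM in exercised libraries and 21.4, 27.7 and 37.5 CPM in controls, a log2 fold change of 0.06 ± 0.25 (SE, edgeR adjusted p = 0.901). At the low end stood mRpL21 at 6.40 CPM per kb, mRpS24 at 7.32, mRpS21 at 9.55, mRpS6 at 10.8 and mRpL11, a protein of the stalk base, at 11.3. All 5 had overlapping groups and edgeR adjusted p of 0.394 to 0.865. For mRpS24 and mRpS21 the low level depended on the length used, since 55.3% and 48.0% of their exon bases are shared with a gene on the other strand. With those bases left out of the length, but all counts kept, they stood at 16.4 and 18.4 CPM per kb. These values are too high if reads in shared bases were counted. By the same measure mRpL21, which shares none, stayed at 6.40 and remained the lowest of the 70.

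The genes are compact and lie close to their neighbours. Their median exon length of 783 bases compares with 2168 for all protein-coding genes tested, and they had a median of 2 exon blocks against 4, with 8 genes of a single block. For 51 of 70 (72.9%) another protein-coding gene starts on the other strand within 500 bases upstream, an arrangement called head to head, beside 31.7% of 8783 protein-coding genes tested, 37.3% of the cytosolic ribosomal protein genes and 46.0% of the respiratory chain genes. Exon bases were shared with another gene for 41 of 70 (58.6%, beside 37.3% of protein-coding genes tested), 39 of them on the other strand only. In 7 genes (mRpL13, mRpL17, mRpL48, mRpS9, mRpS14, mRpS21 and mRpS24) the shared part was at least 20% of the exons. No source used here says whether the counting used strand, so reads from these shared bases cannot be told apart. Among the 29 genes with no shared exon base the median log2 fold change was 0.02 with 0 called, and among the 41 with shared bases it was -0.07 with 0 higher and 1 lower.

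Genes around the mitochondrial ribosome were taken in short lists, where few calls are possible, beside 18.8% called of all genes tested. The CPM of the groups did not overlap for 11.1% of the translation factors and 33.3% of the aminoacyl-tRNA synthetases tested. The share was 30.0% for the mitochondrial DNA genes, 33.3% for the RNA genes and 40.0% for the regulators described below. Over all genes tested it was 39.2%. Small subunit proteins examined here under other symbols were tko and bonsai. The first is the homologue of bacterial S12 at the decoding centre, and its mutation makes flies bang-sensitive. The second is the homologue of S15. tko had 16.2, 15.8 and 14.1 CPM in exercised libraries and 14.8, 16.1 and 22.0 CPM in controls (log2 fold change -0.20, edgeR adjusted p = 0.431), and bonsai had 30.9, 23.7 and 25.3 CPM and 20.8, 22.4 and 33.7 CPM (0.06, adjusted p = 0.882). Both showed the library order of the group, with exercised 1 and control 3 highest. Of 10 mitochondrial translation factors 9 were tested and 0 were called in either direction (median log2 fold change 0.02), the most expressed being mEFTu1, the factor that brings aminoacyl-tRNA to the ribosome, at 61.8 CPM per kb. The smallest adjusted p in this list was that of the initiation factor mIF3 (log2 fold change 0.24, edgeR adjusted p = 0.174). Of 15 mitochondrial aminoacyl-tRNA synthetases 0 were higher and 1 was lower, SerRS-m, which charges the mitochondrial serine tRNAs. SerRS-m had 9.56, 11.4 and 11.3 CPM in exercised libraries and 15.0, 14.3 and 17.6 CPM in controls, with a log2 fold change of -0.54 ± 0.12 (SE) and an edgeR adjusted p of 0.021.

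Of 12 genes for maintenance and transcription of mitochondrial DNA, 10 were tested and 0 were called, with a median log2 fold change of -0.11 and 9 of 10 negative. PolG1, the catalytic subunit of the mitochondrial DNA polymerase, had 9.37, 11.6 and 9.02 CPM in exercised libraries and 12.4, 13.9 and 17.4 CPM in controls (log2 fold change -0.54, edgeR adjusted p = 0.052). The transcription termination family member mTerf5 and the protease Lon had log2 fold changes of -0.23 and -0.19 (edgeR adjusted p = 0.119 and 0.168), and TFAM, which packages mitochondrial DNA, one of -0.09 at the highest level of the list, 22.7 CPM per kb. Of 6 genes for mitochondrial RNA stability and processing that were tested, 0 were called and the median was -0.07. Among 5 transcription regulators known to act on nuclear genes for mitochondria or ribosomes, 1 was higher, Myc, which drives growth and ribosome production in flies. Myc had 50.9, 43.2 and 47.1 CPM in exercised libraries and 23.8, 24.1 and 19.6 CPM in controls, a log2 fold change of 1.07 ± 0.11 (SE, edgeR adjusted p = 0.0010). The PGC-1 homologue srl, a coactivator of mitochondrial genes, had 36.5, 23.9 and 30.0 CPM in exercised libraries and 21.7, 22.0 and 19.0 CPM in controls, with no overlap but an edgeR adjusted p of 0.052 (log2 fold change 0.53). Dref, ewg and Ets97D had log2 fold changes of 0.16, -0.11 and -0.07 and were not called. Control 3 was the lowest control for Myc and srl, where it was the highest for most mitochondrial ribosomal protein genes. Exercised 1, however, was the highest exercised library for both, as for most of those genes. Among the 5 regulators control 3 was the highest control for 1 (ewg) and exercised 1 the highest exercised library for 3. The regulators are also longer, with a median exon length of 4642 bases. A link between their library order and that of the group was not tested.

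**Figure D4:**
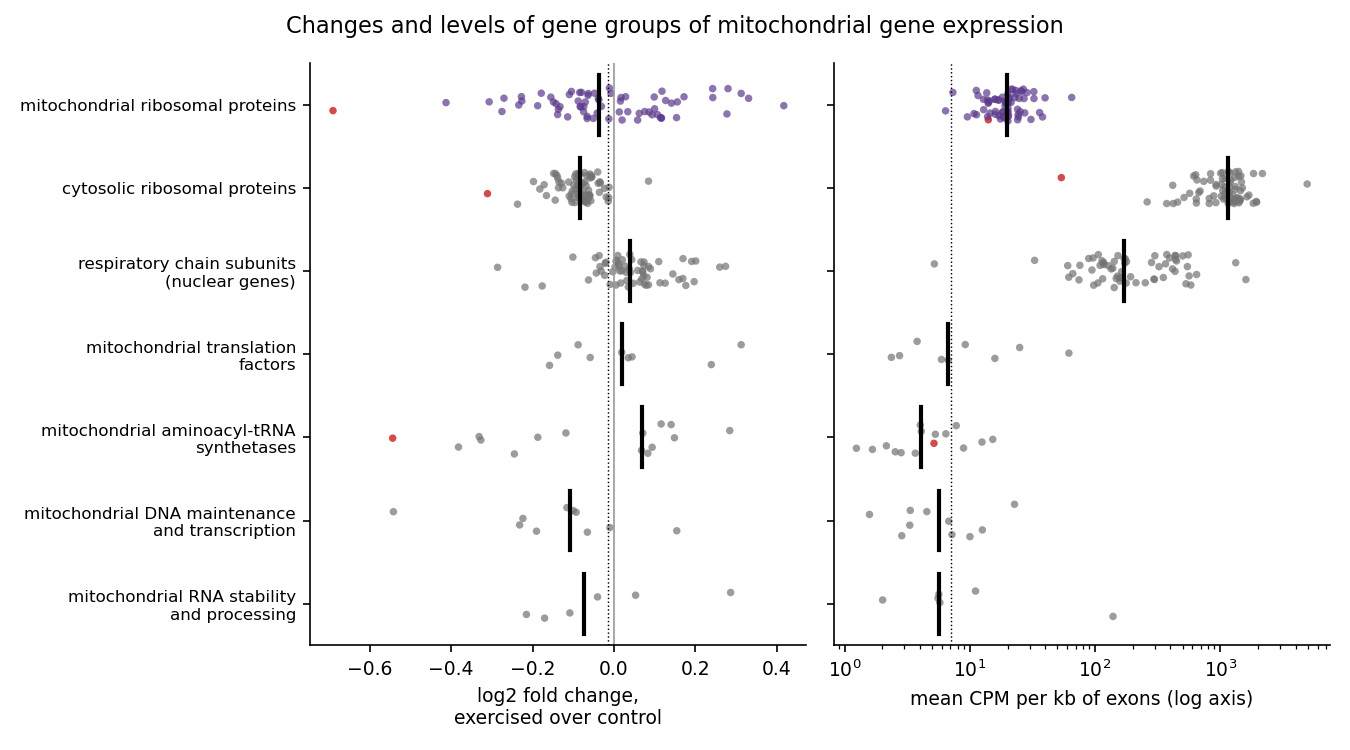
Log2 fold change (exercised over control, left) and mean CPM per kb of exons (right, log axis) of the tested genes of 7 groups, with the median of each group as a bar and the median over all genes tested as a dotted line (-0.01 and 7.03 CPM per kb). Red points passed an adjusted p of 0.05 (mRpS31, RpS15Ab and SerRS-m), and the mitochondrial ribosomal proteins spread from -0.69 to 0.42 about a median of -0.04.

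The cytosolic ribosomal protein genes and the respiratory chain genes, the groups most like this one in function, were also nearly without calls, but their fold changes were more uniform. Of 75 cytosolic ribosomal protein genes 0 were higher and 1 was lower (RpS15Ab, log2 fold change -0.31, edgeR adjusted p = 0.029), with a median of -0.08, 74 of 75 negative and all 75 intervals within 1.5-fold. Of 63 respiratory chain genes 0 were called, with a median of 0.04 and 48 positive. The fold changes of the mitochondrial ribosomal protein genes covered both signs and a wider quartile range, -0.11 to 0.10, where those were -0.10 to -0.06 for the cytosolic ribosomal protein genes and 0.00 to 0.08 for the respiratory chain genes. The standard errors differed too, with medians of 0.16 for the mitochondrial, 0.09 for the cytosolic and 0.08 for the respiratory chain genes, and the levels per kb were lowest for the mitochondrial group. The differences between these groups were not tested. From the mitochondrial genome itself 12 of 37 genes were tested, with 0 higher and 1 lower. The large ribosomal RNA, mt:lrRNA, the RNA core of the large subunit, stood at 9046 CPM per kb in these polyA-selected libraries, with 12329, 12803 and 10625 CPM in exercised and 12040, 11950 and 12112 CPM in controls, so that control 3 stood at the level of the other controls. The 1 call was mt:ND4L, a subunit of complex I, listed at 0 in all 3 exercised libraries against a mean of 1.32 CPM in controls. Set against a floor of 3 counts over the group, mt:ND4L was listed about 27.0-fold or more lower in exercised larvae (edgeR adjusted p = 0.0030). The gene mt:ND4, which overlaps it on the same strand, averaged 197 CPM in exercised and 203 CPM in control libraries. Its log2 fold change was -0.04 (edgeR adjusted p = 0.822). mt:ND4L was thus listed low in both groups, and the cause of its zeros was not tested. Other mitochondrial genes were also listed low, with mt:ATPase8 and mt:srRNA at 0 in all 6 libraries. mt:CoII averaged 0.93 CPM in exercised and 0.95 CPM in control libraries, beside 540 and 536 CPM for mt:CoI. The fold of mt:ND4L is therefore one between listings and not a measured fall of the transcript.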

How the data were processed

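The authors extracted RNA from larval cuticle preparations, sequenced polyA-selected single-end libraries, checked the reads with FastQC, aligned them with STAR to release 6 of the fly genome and deposited raw counts per gene from featureCounts. Strandedness, tool versions, the annotation release and the assignment of reads in shared exons are not stated in the sources used. Columns were matched to the 3 exercised and 3 control samples by name, and all 6 columns were used.

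Symbols, positions and exons came from the Ensembl 115 annotation (BDGP6.54). Symbols were found for 17200 identifiers, and 277 identifiers without one held 4.08% of the counts and entered no list. Counts were scaled by TMM factors and tested with edgeR 4.0.16 in R 4.3.3 (filterByExpr, glmQLFit with robust estimation, glmQLFTest, condition as the only term), with Benjamini-Hochberg adjustment over 9127 genes and a threshold of 0.05. Fold changes are log2, exercised over control, and CPM values use the TMM-scaled library sizes. CPM per kb divides by merged exon length. Lists are described by counts and medians without a set test. The script was tested on simulated data.

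The genes and lists were chosen with earlier results of these data known. Genes named are those past the threshold, the 6 highest and 6 lowest fold changes, the 5 highest and 5 lowest levels per kb, the S18 family, and in other lists up to 3 with the smallest adjusted p and the most expressed one; mRpS7 was named after its values were seen. Alternatives were DESeq2 1.42.0, limma-voom (limma 3.58.1), RLE and upper-quartile factors, no filter, at least 1 CPM in every library, estimation without robust=TRUE, a block for the replicate number, leaving out each library in turn, and genes with shared exons left out. Lengths without shared exon bases were added after seeing the data. A planned search of promoters for motifs was not run, and no sequences were used here. No library was a duplicate of another.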

Additional observations from a re-analysis of the deposited data

How the results depend on the processing

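The count of mitochondrial ribosomal protein genes called lower (1) was 3 with upper-quartile factors, which added mRpL17 and mRpS22, 0 with the replicate number as a block and 0 when genes with shared exons were left out, since mRpS31 is one of these. Leaving out one library at a time it was 0 to 1, and the count called higher 0 to 2. Over all genes tested, leaving out one library gave 469 to 934 higher and 358 to 847 lower (469 and 358 without exercised 3, 553 and 477 without control 2), and the replicate block gave 599 and 465. Same-numbered libraries deviated with correlations of -0.22, 0.00 and -0.24, and each exercised library correlated best with a control of another number. For exercised 2 this was by little, with -0.010, 0.003 and 0.006 for controls 1, 2 and 3. The values thus showed no pairing by number, but they cannot tell whether libraries of one number were collected together. mRpS31 had an adjusted p of 0.10 under the block. The median log2 fold change of the group was -0.09 with upper-quartile factors, which moved the median of all genes to -0.07, and -0.13 to 0.14 with one library left out. Signs turned for some of the named genes, none of them called. With upper-quartile factors mRpL42 was at -0.026 and mRpS9 at -0.039. With one library left out, the log2 fold changes ran from -0.028 to 0.21 for mRpL11, -0.15 to 0.31 for mRpL12, -0.10 to 0.27 for mRpL21, -0.13 to 0.021 for mRpL28, -0.051 to 0.16 for mRpL42, -0.28 to 0.061 for mRpS18A, -0.25 to 0.13 for mRpS18B, -0.039 to 0.29 for mRpS21, -0.27 to 0.15 for mRpS6 and -0.084 to 0.15 for mRpS9. The causes were not tested. With 3 libraries a group and 69 to 1929 counts per gene and library, the 95% interval of the difference stayed within 1.5-fold for 56 of the 70 genes and reached past it for the others.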

Other observations

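Genes whose exons lie inside other genes had few counts in this table, which bears on which genes of the mitochondrial gene expression system could be measured. Of 431 protein-coding genes with at least 95% of their exon bases shared with another annotated gene, 397 (92.1%) were listed at 0 in all 6 libraries, beside 1602 of 13287 (12.1%) with less shared. Besides mRpL53, this held for the translation factor gene waw, mtTFB1 (a homologue of mitochondrial transcription factor B), PolG2 (the accessory subunit of the mitochondrial DNA polymerase) and SLIRP1 (a homologue of the RNA-binding protein SLIRP), each with 100.0% of its exon bases shared and 0 counts in both groups. No source used here states how reads in shared bases were assigned, and the cause of these zeros was not tested. A 0 for these genes is therefore a listing and not a measured absence.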
